A study of Mus musculus with 4 samples.

Results

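The comparison described here sets the outer granule cell layer of the dentate gyrus of senile mice against the same layer of young adult mice. It rests on 2 of the 4 arrays of the study, 1 for each age, and its features are the 24114 genes, of 30184 named on the array, whose brightest probe was well above the local background on at least 1 of the 2 arrays. The young group was 3 months old and the senile group 20 to 24 months old. Both were female C57Bl6J mice without a transgene or a treatment, and the RNA of each group was a single pool from 8 mice. This layer of the dorsal dentate was cut out of coronal sections of 20 µm by laser capture microdissection, and its outer part, on the side of the molecular layer, was collected apart from the inner part, on the side of the subgranular zone. The sources used here do not say whether 1 set of 8 mice gave both its inner and its outer pool. RNA (0.6 µg) was amplified, labelled with the dye Cy3 and hybridised to 1-colour Agilent arrays. With 1 pooled array at each age there is no replicate, so every value below is a difference between these 2 libraries. No p-value can be given, and the spread among mice is not known.

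The dentate gyrus is the entrance to the hippocampal circuit, and its principal cells, the granule neurons, are packed in this layer. New granule neurons are born throughout adult life in the subgranular zone and migrate into the layer, mostly staying in its inner part, so the outer part holds mainly older neurons born during development. Production of new neurons declines steeply with age. Axons of interneurons, processes of astrocytes, myelinated fibres and microglia also run through the layer, and a captured strip contains their RNA too.

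Levels are given as the processed signal of the scanner software, in arbitrary units, and differences as log2 of senile over young after each array's signals had been divided by their 75th percentile. That percentile was 426.3 on the young array and 418.3 on the senile array. The share of spots well above background was 75.7% and 77.5%, no spot was saturated, and probes printed several times differed with a median SD of 0.065 and 0.07 log2 within an array. For those repeated probes a difference between the arrays carries a printing error of about 0.096 log2. The spot error given by the scanner software, which applies to single spots, had a median of 0.2 log2 for a difference and reached 1.45 among the dim genes named below. The error of the labelled pools was not measured.

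Most genes stood at nearly the same level at both ages. The median difference was 0.12 log2, and 88.9% of genes lay within 2-fold. At least 2-fold higher in the senile layer were 1474 genes, 6.11% of those measured, and at least 2-fold lower were 1213 genes, 5.03%. The calls were concentrated among dim genes. With the genes ranked by signal and split into 3 equal classes, of the 8038 in the brightest class 70 were higher and 92 lower, against 986 and 620 of the 8038 in the dimmest class. A second way of removing background, the normexp model with an offset of 50, pulls dim signals together, and with it 250 genes (1.04%) still passed 2-fold on the higher side and 273 (1.13%) on the lower. Quantile scaling turned the balance, giving 1139 higher and 1449 lower, or 44.0% higher among the calls against 54.9% with the 75th percentile. Genes given below with a fold passed 2-fold with both background corrections unless stated otherwise, and other members are given by their log2 difference. The folds are those of the first correction. Normexp gives smaller ones for dim genes, and its value is printed beside many of these.

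**Figure D1:**
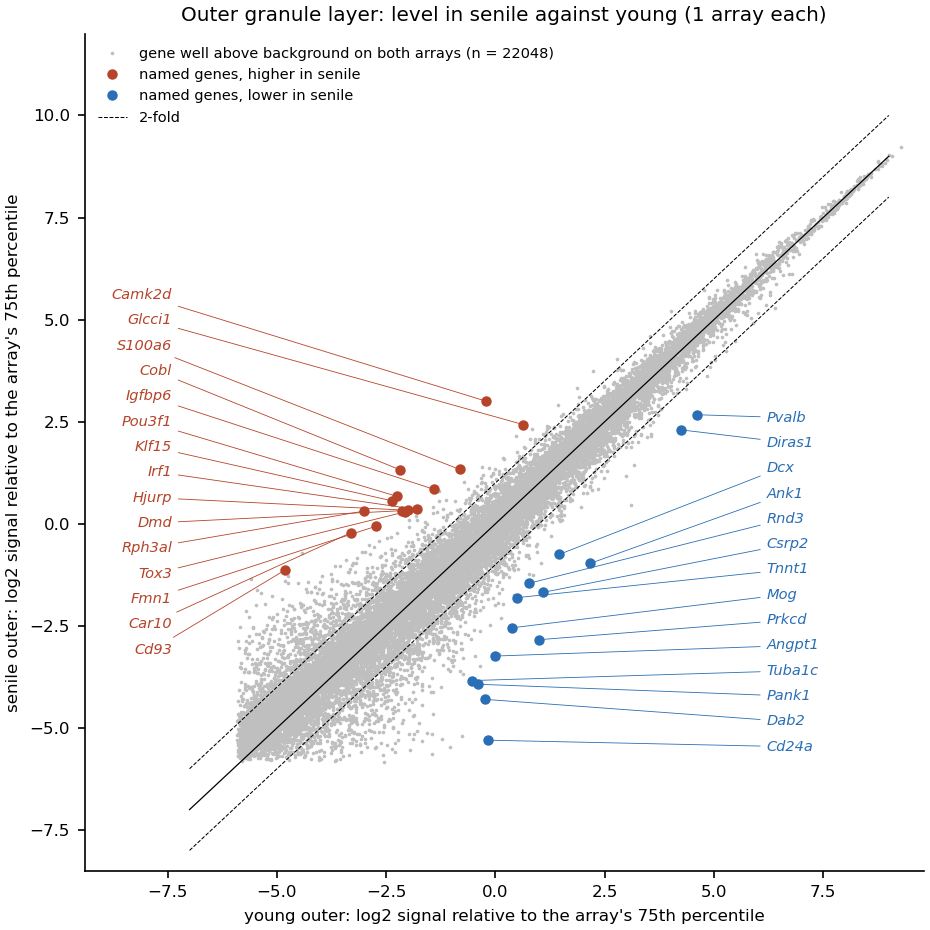
Level of each gene in the senile outer layer (y axis) against the young outer layer (x axis), both as log2 signal relative to the array's 75th percentile, for 22048 genes well above background on both arrays. Dashed lines mark 2-fold, and coloured points are 15 higher and 14 lower genes among those with the largest differences under both background corrections. The cloud is narrow at high signal and wide at low signal.

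Ranked by the smaller of the values under the 2 corrections, the gene highest in the senile layer over the young was Camk2d, the delta subunit of calcium/calmodulin-dependent kinase II. Its probe at chr3:126547685-126547744 (mm9) read 368.3 in the young and 3339.9 in the senile layer, a 9.24-fold difference or 3.21 log2 (3.08 with normexp). Its inner-layer signals were 1406.2 in young and 3159.2 in senile mice, so the young outer sample was the lowest of the 4. A pair of other Camk2d probes was dimmer. One gave 3.86 log2, and the other, below the detection floor in young, gave a limit of at least 3.92 (1.4 with normexp). Cobl, an actin nucleator of dendrites, read 93.9 in young and 1047.2 in senile (11.37-fold, 2.84 log2 with normexp), against 870.5 and 796.3 in the young and senile inner layer. Its other probe, below the floor in young, gave a limit of at least 2.36 log2 and 0.7 with normexp.

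Several of the higher genes encode transcriptional regulators. Klf15, a zinc finger factor induced by glucocorticoids, read 82.9 in young and 618.1 in senile (7.6-fold, 2.32 log2 with normexp), and both inner samples were close to the senile value, at 607.3 and 612.8. Pou3f1, a POU factor that also marks CA1 pyramidal neurons, read 89.8 and 663.8 (7.53-fold, 2.3 log2 with normexp). Irf1, an interferon-induced factor, read 122.7 and 533.0 (4.43-fold), although its second probe gave only 0.5 log2. Tox3, an HMG-box factor, read 101.2 and 511.3 (5.15-fold) with 0.83 log2 on its second probe, and it was the one member of these 15 genes that was more than 2-fold lower in the senile inner layer. In the brightest class of genes, Tshz3, a zinc finger homeobox factor, read 345.1 and 1099.5 (3.25-fold) and was 3.42-fold higher in the inner layer as well. Sap30, a subunit of the Sin3 histone deacetylase complex, read 257.6 and 854.7 (3.38-fold). Tle4, a Groucho-family corepressor, read 385.0 and 1071.1 (2.83-fold), but a second probe of similar brightness gave 0.08 log2.

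The remaining genes of this group have varied roles. S100a6, a calcium-binding protein, read 240.9 and 1048.8 (4.44-fold), while its inner-layer signals were 521.5 and 427.5. Igfbp6, a binding protein for insulin-like growth factor, read 161.8 and 748.4 (4.71-fold). Glcci1, named for its induction by glucocorticoids, read 661.7 and 2253.4 (3.47-fold), with 0.69 and 0.2 log2 on its other probes. Hjurp, a chaperone of centromeric histone, read 105.9 and 526.8 (5.07-fold), but its other probes gave 0.82 and 0.28 log2. Cd93, a receptor of endothelial and myeloid cells, read 15.2 and 191.1 (12.83-fold, 1.79 log2 with normexp). Tmem255a, a transmembrane protein, read 585.5 and 1860.1 (3.24-fold), a second probe gave 2.38 log2, and the inner layer differed by a similar 3.26-fold.

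Several of the largest differences rested on 1 of a gene's probes. Rph3al, a Rab effector of exocytosis, differed by 3.33 log2 (2.39 with normexp) on its brightest probe and by 0.19 on the other. Car10, a carbonic anhydrase-related protein, differed by 3.09 (2.06 with normexp), 0.27 and -2.32 on 3 probes, and Dmd, which encodes dystrophin, by 2.46 (1.85 with normexp), 0.36, 0.64 and -2.47 on 4. The lowest value of Car10 and of Dmd is a limit from a probe below the floor in senile, with -0.51 and -0.72 log2 under normexp. Fmn1, a formin, differed by 2.67 (1.85 with normexp), 0.06 and -0.15, and Hpcal1, a neuronal calcium sensor, by 1.49 and -0.03. Over all genes past 2-fold under both corrections, 78 of 95 other probes of the higher genes agreed in direction and 37 of them also passed 2-fold. Of the lower genes 71 of 89 agreed and 30 passed 2-fold.

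**Figure D2:**
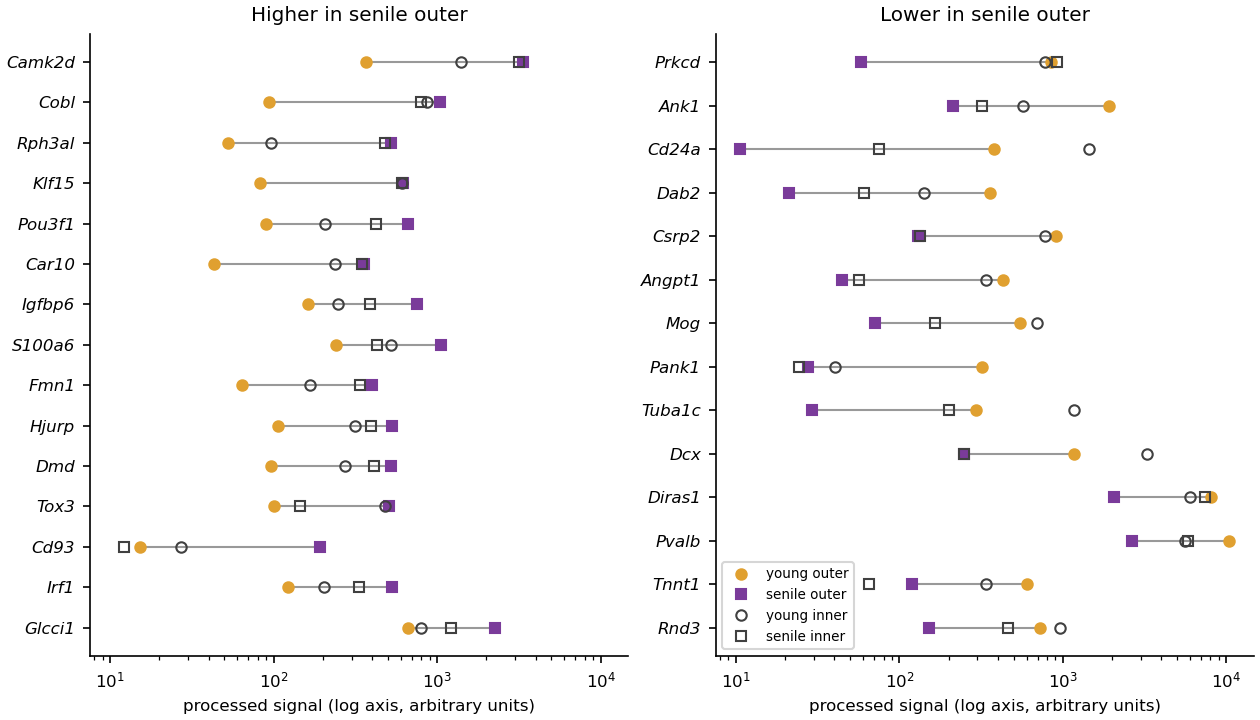
Processed signal (x axis, log scale, arbitrary units) of 15 higher and 14 lower genes on the 4 arrays. Filled points joined by a line are the outer samples and open points the inner samples. Among the higher genes the young outer sample mostly stands apart on the left, as for Klf15 and Cobl, and among the lower genes Prkcd, Diras1 and Pvalb have the senile outer sample alone on the left.

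By the same rank, the first of the lower genes was Prkcd, a protein kinase C isoform abundant in thalamic neurons. Its probe at chr14:31411938-31411997 (mm9) read 847.6 in young and 58.6 in senile (14.2-fold lower, -3.83 log2, -2.91 with normexp), while the inner samples read 773.5 and 915.3. A second, dimmer probe gave -2.22 log2. Ank1, the erythroid and neuronal ankyrin, read 1918.8 and 213.0 (8.84-fold lower). Dab2, an endocytic adaptor, read 357.7 and 21.2 (16.57-fold lower, -2.34 log2 with normexp), but its second probe gave -0.58 log2 and -0.04 with normexp. Rnd3, which restrains actin stress fibres, read 721.1 and 151.9 (4.66-fold lower), and Pank1, a kinase of coenzyme A synthesis, 321.0 and 27.5 (11.47-fold lower, -2.04 log2 with normexp).

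A further set of bright genes was lower in the senile outer layer and not in the senile inner layer. Diras1, a Ras-related GTPase of brain, read 8054.1 and 2065.1 in the outer layer (3.83-fold lower), against 6026.2 and 7379.6 in the inner. Pvalb, the calcium buffer parvalbumin of fast-spiking interneurons, read 10424.5 and 2665.1 (3.84-fold lower), against 5608.5 and 5822.9. Its second probe gave -0.68 log2. Slc27a1, a fatty acid transporter, read 884.0 and 216.4 (4.01-fold lower), and Maz, a zinc finger factor, 832.0 and 259.7 (3.14-fold lower). The difference between the layers in these age differences was not tested, since no array was repeated.

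Genes of immature neurons were lower, and this group holds some of the largest differences. Of the 28 markers of neuroblasts and immature granule neurons, 27 were measured, 8 were at least 2-fold lower and none higher, and 23 lay below 0. Over all genes 5.03% were at least 2-fold lower and 6.11% higher, and the outer list counts here and below stand beside these shares. The median was -0.48 log2. Dcx, the doublecortin of migrating neurons, read 1170.1 and 248.8 (4.62-fold lower), and its other probes gave -1.6 and -2.98 log2. The inner layer held more Dcx signal in young mice, 3251.4, and almost the same in senile mice, 247.3. Cd24a, a surface protein of neuroblasts, read 377.2 and 10.6, the latter near the background (-2.61 log2 with normexp). Camk4, a calcium/calmodulin kinase, read 3387.1 and 938.2 (3.54-fold lower), Sema3c, a secreted semaphorin, 308.6 and 44.6 (6.79-fold lower, -1.85 log2 with normexp), Dpysl3, a cytoskeletal regulator of growth cones, 306.0 and 68.9 (4.36-fold lower, -1.46 log2 with normexp), and Stmn2, a microtubule destabiliser of growing axons, 712.1 and 246.4 (2.84-fold lower). Other members that are also expressed by mature granule neurons were flat, among them Neurod2 at -0.12, Tubb3 at 0.03 and Stmn1 at 0.2 log2.

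The tubulin gene Tuba1c, abundant in growing neurons, read 295.2 and 29.2 (9.93-fold lower, -1.97 log2 with normexp), with -4.14 log2 on a second probe. Alpha tubulins have near-identical copies, so which copy these probes read is uncertain. Csrp2, a LIM-domain protein, read 905.4 and 130.3 (6.82-fold lower), with 774.1 and 134.4 in the inner layer.

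Earlier steps of neurogenesis are covered by lists of stem cell and cell cycle genes. The 19 measured markers of radial glia and neural stem cells had a median of -0.02, with 3 lower, Wnt8b at -2.11, Tfap2c at -1.83 and Hes1 at -1.01 log2, none of them past 2-fold with normexp. The 18 measured cell cycle genes had a median of 0.19. Rrm2, a ribonucleotide reductase subunit, stood at -1.58 and Mki67, the proliferation marker, at -1.31, but Birc5, the mitotic survivin, at 1.51 and Aurka, a mitotic kinase, at 1.4 log2. Of these genes only Birc5 also passed 2-fold with normexp, at 1.04. Its other probes gave 0.54 log2 and, below the floor in young, a limit of at least 0.92 (0.13 with normexp). In the inner layer the same lists had medians of -1.10 and -1.35. There 12 of 19 and 11 of 17 members were at least 2-fold lower, where 6.76% of 23767 genes were at least 2-fold lower and 5.32% higher. Whether the age difference of these lists differs between the layers was not tested. Top2a, Bub1, Aurkb and Cenpf were not well above background on either outer array.

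All 25 markers of mature granule neurons were measured in the outer layer, and all 25 also had values in the inner layer. Their age difference therefore cannot show which part of the layer was captured. Among the 25, 1 was higher and 1 lower, with a median of -0.16. Prox1, the transcription factor that defines the granule neuron, read 2268.6 and 1615.3 (-0.46 log2), Calb1, the buffer calbindin, 4738.3 and 2924.8 (-0.67), and Dsp, desmoplakin, 4773.7 and 3856.4 (-0.28). Plk5, a polo-like kinase of neurons, read 2018.2 and 5566.0 and was the higher member at 2.81-fold. Rasgrp1, a Ras activator, read 1747.3 and 3395.5, just under 2-fold at 0.99 log2. In pooled tissue, fewer cells of a type and less RNA per cell cannot be told apart.

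Myelin genes were lower in the senile outer layer. All 24 oligodendrocyte markers were measured, and 8 were at least 2-fold lower and none higher, where 5.03% of all genes were lower. Of the 8, 5 also passed with normexp, where 1.13% of all genes did, and the median was -0.48 log2. Mog, a myelin surface protein, read 549.4 and 71.3 (7.56-fold lower, -2.21 log2 with normexp). Cnp, a myelin enzyme, read 333.1 and 96.4 (3.39-fold lower), Cldn11, the tight junction protein of myelin, 12157.5 and 5176.8 (2.3-fold lower), and Tspan2, a tetraspanin of myelin, 607.4 and 195.7 (3.05-fold lower). The list was not uniform, since Mbp, the myelin basic protein, stood at 0.57, Ermn, a myelin cytoskeletal protein, at 0.4 and Trf, transferrin, at 0.44 log2. The summed signal of the list was 34550 in young and 24131 in senile. The summed signal of thalamic marker genes, a list chosen after its values were seen, was 9573 in young and 6511 in senile. Without Prkcd, Slc17a6, Tnnt1 and Zic1, whose low values led to that list, it was 7482 and 6102. The part of RNA captured from outside the granule layer in the myelin differences was not tested. In the inner layer the median of the oligodendrocyte list was 0.10, with 1 higher and 2 lower. The 2 lower were Mog at -1.91 and Tspan2 at -1.07 log2, while Cldn11 stood there at -0.72 and Cnp at -0.45.

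Prkcd, Slc17a6, Tnnt1 and Zic1 are genes of thalamic neurons, and their low values led to a list of 22 thalamic markers, whose values had been looked up before it was drawn up. Of 21 measured, 6 were at least 2-fold lower and 1 higher, with a median of -0.70, and the 4 genes that led to the list are among the 6. Without them, 2 of 17 were lower, Cacna1g and Slitrk6, neither with normexp, the median was -0.60, and the summed signal was 7482 in young and 6102 in senile. Slc17a6, the vesicular glutamate transporter of thalamus, read 154.5 and 11.7 (12.92-fold lower, -1.53 log2 with normexp). Tnnt1, a troponin found in thalamus, read 600.5 and 119.5 (4.93-fold lower), with -1.7 log2 on its second probe, and Zic1 488.0 and 218.5 (-1.13 log2). Defining thalamic transcription factors were at or near background at both ages, with Gbx2 at 14.3 and 19.9, Shox2 at 12.2 and 3.0 and Lef1 at 6.6 and 12.6, and Zic4 was 7.04-fold higher, from 8.2 to 56.8 (0.85 log2 with normexp). The part of thalamic RNA in these differences was not tested.

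**Figure D3:**
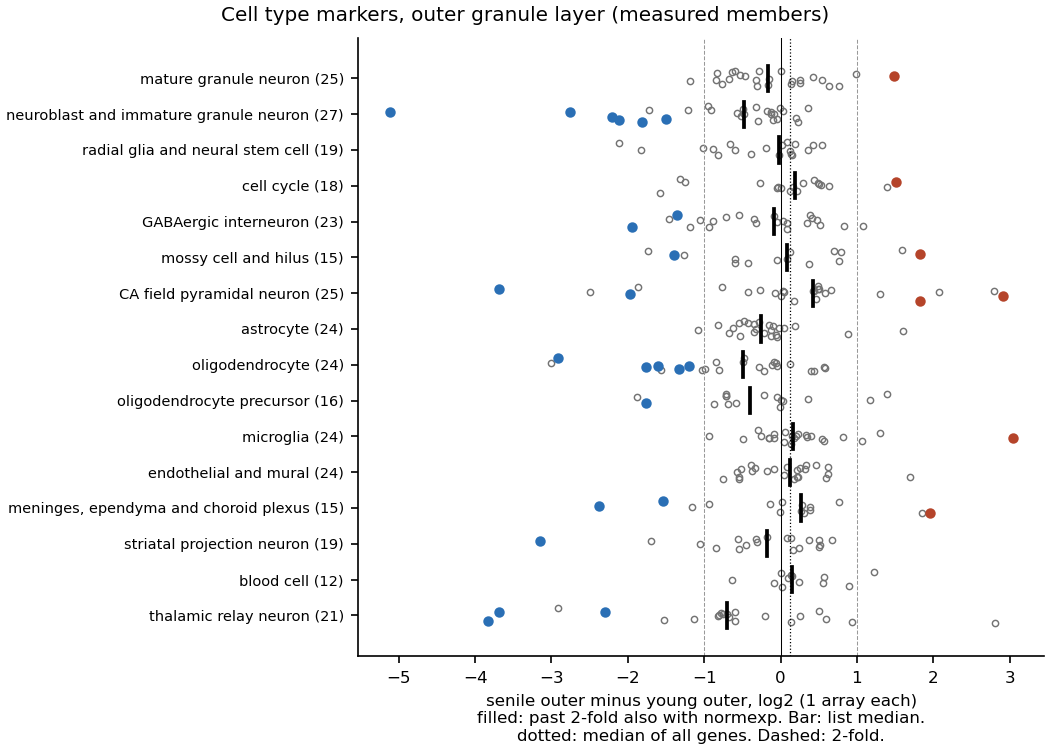
Difference between the senile and the young outer layer (x axis, log2, 1 array each) for the measured members of the cell type lists, with the number measured in parentheses. Each point is a gene, filled where it passed 2-fold with both background corrections, the bar is the list median and the dotted line the median of all genes at 0.12. Immature neuron and oligodendrocyte medians lie at -0.48, and the thalamic list was chosen after its values were seen.

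Other neural cell types showed smaller or mixed differences. Of the 23 measured interneuron genes 5 were lower and 1 higher, with a median of -0.09, where 5.03% of all genes were lower and 6.11% higher. Slc32a1, the vesicular GABA transporter, read 2392.9 and 915.4 (2.57-fold lower), with -0.39 log2 on its second probe, and Sst, somatostatin, 400.2 and 188.2 (-1.06, -0.85 with normexp). The GABA-synthesising enzymes were closer to even, with Gad1 at 0.08 and Gad2 at -0.72 log2. The 24 astrocyte markers had a median of -0.25, and 20 of them lay below 0, though 1 was at least 2-fold higher and 1 lower. Only 3 stood above the median of all genes. Gfap, the intermediate filament of astrocytes, stood at -0.02 and Serpina3n, a marker of reactive astrocytes, at -1.08. Of the 25 CA field genes, 5 were higher and 4 lower with a median of 0.43, Pou3f1 and Dkk3, a secreted Wnt modulator, being the higher members with both corrections and Slc17a6 and Cacng5, a receptor auxiliary subunit, the lower. Pcp4, a bright member, stood at 0.03.

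Microglial and vascular genes stood near the median of all genes. Of 24 microglial genes 3 were higher and none lower, with a median of 0.16, and their summed signal was 119739 and 125831. Laptm5, a lysosomal protein of immune cells, read 14.3 and 115.9 (8.23-fold, 1.18 log2 with normexp), with a limit of at least 2.94 log2 on its second probe (0.72 with normexp), and the purinergic receptors P2ry13 and P2ry12 stood at 1.3 and 1.07 log2, both under 2-fold with normexp. Cx3cr1, the fractalkine receptor, read 3992.7 and 5155.6 (0.4 log2) and Csf1r, the growth factor receptor of microglia, 3300 and 2715.4 (-0.25). The genes of disease-associated microglia had a median of -0.01 over 18 measured, and Clec7a, Cst7, Itgax and Spp1 were not well above background on either array. The 24 endothelial and mural genes had a median of 0.13 with 1 higher, and of 20 blood cell genes 12 were measured with a median of 0.14.

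Genes of the interferon response were spread widely. Of 25 measured, 8 were higher and 3 lower, with a median of 0.31, where 6.11% of all genes were higher and 5.03% lower. However, 16 of the 25 lay in the dimmest class, where 12.27% of genes were higher, and 3 of the 8 passed with normexp. Those were Irf1, its partner factor Irf9, which read 82.0 and 272.1 (3.38-fold), and Ifi27, a mitochondrial interferon-induced protein, which read 800.6 and 1760.9 (2.24-fold). Ifit3 at -1.91, Ifih1 at -1.8 and Rsad2 at -1.33 log2, all antiviral effectors or sensors, were on the lower side. Complement and class I genes had a median of 0.23, with C1ra 6.81-fold higher on 1 probe (1.12 log2 with normexp) and 0.18 log2 on another. Among cytokines and chemokines 8 of 29 genes, Il6, Il1a, Il10 and Cxcl10 among them, were not well above background, and the 21 measured had a median of 0.20, Cxcr4 (-2.54, or -1.58 with normexp) being the member past 2-fold with both corrections.

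Immediate early genes, which neurons switch on within minutes of strong activity, were on the higher side. Of 24 measured, 5 were at least 2-fold higher, 4 of them with both corrections, and 1 was lower. Among all genes 6.11% were higher, 1.04% with both corrections, and 5.03% lower. The median was 0.50, and 18 of 24 stood above the median of all genes. Fos read 46.4 and 214.0 (4.7-fold, 1.4 log2 with normexp), and Fosb, another Fos-family member of AP-1, 1149.1 and 3124.7 (2.77-fold). Egr2, a zinc finger factor, read 121.9 and 475.7 (3.98-fold), and Nr4a2, an orphan nuclear receptor, 345.1 and 853.0 (2.52-fold), with 1.24 log2 on a second probe. Egr1 (0.97), Arc (0.69), Jun (0.64) and Nr4a1 (0.56 log2) stood in the same direction under 2-fold, Npas4 (0.25), Homer1 (-0.13) and Junb (-0.15) were near 0, and Egr3 (-0.44) and Gadd45b (-1.02) were lower. In the inner layer the list had a median of 0.10, with 3 higher and none lower. There Nr4a2 stood at 1.08, Fos at 0.94, Fosb at 0.49 and Egr2 at -0.06 log2.

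The 250 bases before the start of 3 of these 4 genes, those with 1 start in RefSeq (GRCm38.p6), are printed because these genes were higher together. Each reads 5′ to 3′ in the direction of the gene, with the short core of the cyclic AMP response element, TGACG or its complement CGTCA, in capitals. The windows are chr12:85473640-85473889 on the plus strand for Fos, chr7:19310046-19310295 on the minus strand for Fosb and chr2:57124004-57124253 on the minus strand for Nr4a2.
Fos: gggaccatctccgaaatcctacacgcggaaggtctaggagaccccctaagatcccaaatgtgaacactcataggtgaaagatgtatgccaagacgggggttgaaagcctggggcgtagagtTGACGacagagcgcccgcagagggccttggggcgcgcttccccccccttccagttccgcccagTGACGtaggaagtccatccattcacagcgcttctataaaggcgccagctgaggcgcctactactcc
Fosb: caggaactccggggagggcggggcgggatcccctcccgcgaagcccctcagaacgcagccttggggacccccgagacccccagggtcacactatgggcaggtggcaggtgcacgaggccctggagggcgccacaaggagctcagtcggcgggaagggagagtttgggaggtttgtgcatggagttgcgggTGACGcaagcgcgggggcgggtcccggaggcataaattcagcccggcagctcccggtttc
Nr4a2: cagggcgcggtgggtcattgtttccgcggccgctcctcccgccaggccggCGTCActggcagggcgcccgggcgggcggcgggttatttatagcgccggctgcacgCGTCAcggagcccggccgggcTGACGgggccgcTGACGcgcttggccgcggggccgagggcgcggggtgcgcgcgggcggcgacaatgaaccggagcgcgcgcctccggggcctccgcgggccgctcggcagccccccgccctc
The full element TGACGTCA was searched first and occurs in none of the 3 windows. It is in 508 of 32851 RefSeq promoter windows of this length, 1.55%. The short core, searched second, occurs 2 times in Fos, 1 time in Fosb and 4 times in Nr4a2, and 17.77% of all windows hold it. The CArG box, bound by serum response factor, is in 1.47% of all windows and in none of these 3. Bases more than 250 before the start were not searched, so a site there would be missed. Egr2, the other of the 4 genes, has 5 windows, of which 4 hold the CArG box, 3 the short core and none the full element. The 3 windows with the short core overlap and hold the same sites, their CArG box included, so they are not separate matches. Junb, which stood at -0.15 log2, also holds the short core in its 1 window. These are matches of letters only.

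Energy and protein synthesis genes were flat. All 28 measured subunits of oxidative phosphorylation lay within 2-fold, from -0.55 (Uqcrc1) to 0.34 (Atp5o), with a median of 0.04. The 28 ribosomal protein genes lay between -0.54 (Rpl18) and 0.56 (Rpl22) with a median of 0.22. All 28 of the former and 27 of the latter lay in the brightest class, where 2.02% of genes passed 2-fold in either direction. The 27 glutamate receptor and postsynaptic genes also held no member past 2-fold, with a median of -0.20 and 18 of 27 below 0, Grin1, the obligatory NMDA receptor subunit, standing lowest at -0.91. Dendritically localised mRNAs held none past 2-fold either, with a median of -0.13 over 19. In the brightest class were 16 of the 27 glutamate receptor and postsynaptic genes and 18 of these 19.

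**Figure D4:**
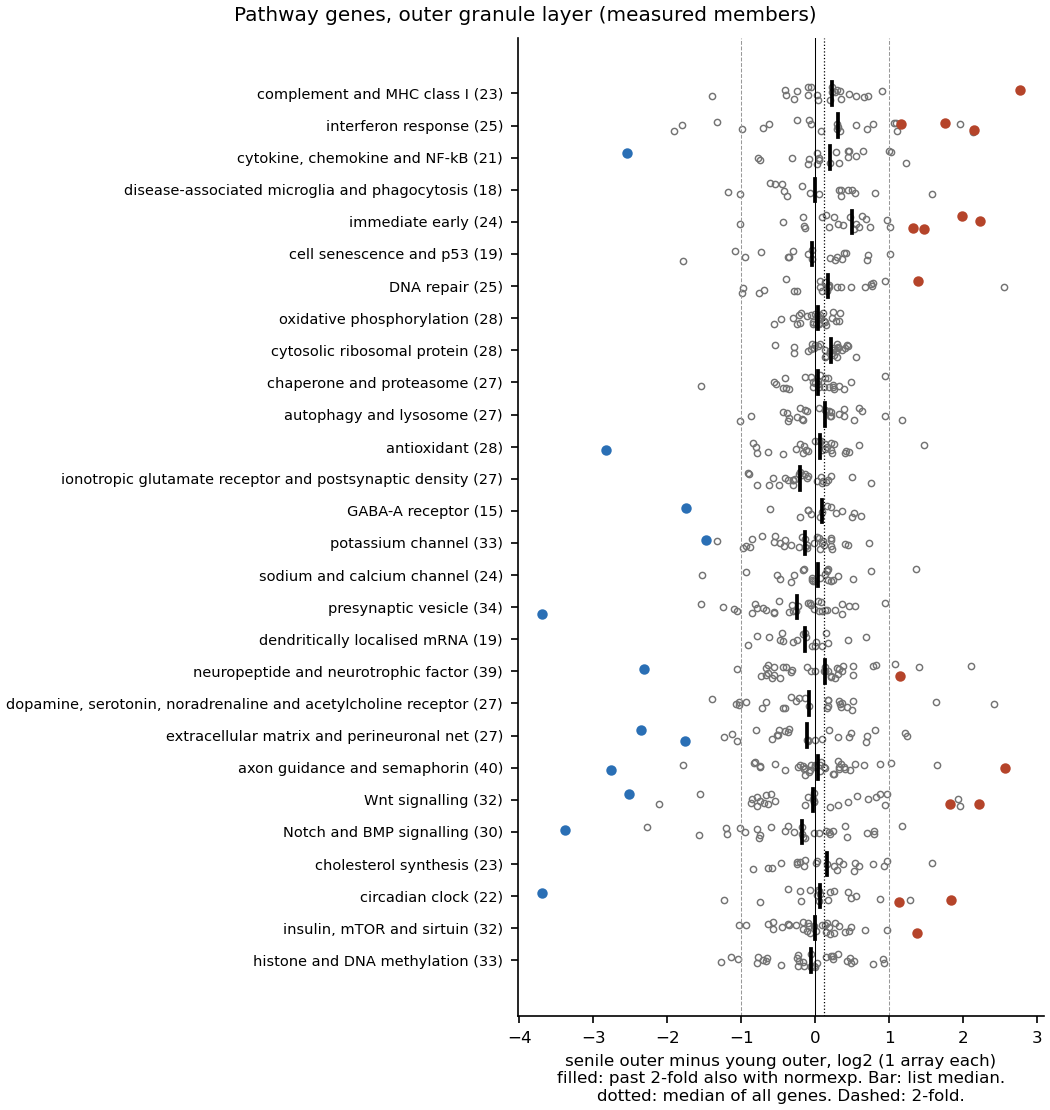
Difference between the senile and the young outer layer (x axis, log2, 1 array each) for the measured members of 28 pathway lists, drawn as in the plot of cell type markers. The immediate early median is 0.50, and the oxidative phosphorylation and ribosomal lists form narrow clusters with no member past 2-fold. Nearly all oxidative phosphorylation and ribosomal members are in the brightest signal class, where 2.02% of genes passed 2-fold.

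Synaptic and matrix genes differed in a few members. Of 34 measured presynaptic genes 5 were lower and none higher, with a median of -0.24, where 5.03% of all genes were lower and 6.11% higher. Besides Slc17a6, the members were Sv2b (-1.54), Unc13c (-1.25), Syt2 (-1.09) and Slc17a7, the vesicular glutamate transporter of cortex and hippocampus (2813.8 and 1330.4, -1.05), each under 2-fold with normexp. Gabra3, a GABA-A receptor subunit, read 3872.9 and 1133.9 (3.35-fold lower), though its second probe gave 0.17 log2, and Kcnip2, a potassium channel partner, 697.9 and 245.0 (2.8-fold lower). Of 27 matrix genes 5 were lower and 2 higher, beside the same shares of all genes, 5.03% and 6.11%. Acan, the aggrecan of perineuronal nets, read 391.4 and 75.3 (5.1-fold lower, -1.71 log2 with normexp), and Vcan, the related versican, 302.8 and 88.0 (3.38-fold lower, -1.24 log2 with normexp), with -1.14 and -0.36 log2 on its other probes. Tnr, which cross-links such nets, stood at -0.8 and Bcan, the brevican, at -0.09.

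Signalling and stress lists had medians near 0 with single members apart. Of 30 Notch and BMP genes 6 were lower and 1 higher, where 5.03% of all genes were lower and 6.11% higher. Jag2, a Notch ligand, read 115.3 and 10.9 in the outer layer (-3.38 log2, -1.3 with normexp). Of 32 Wnt genes 4 were higher and 3 lower. Fzd7, a Wnt receptor, read 34.3 and 157.3 (4.67-fold, 1.21 log2 with normexp), Dkk3 159.8 and 559.0 (3.57-fold), and Sfrp2, a secreted Wnt antagonist, 217.2 and 37.3 (5.72-fold lower, -1.49 log2 with normexp). Among 22 clock genes Arntl, the activator BMAL1, read 43.9 and 154.8 (3.59-fold, 1.09 log2 with normexp) and Nfil3, a repressor in the same circuit, 1002 and 2152.1 (2.19-fold), while Nr1d1 (-1.23) and Dbp (-0.74) were on the lower side. Sirt5, a mitochondrial deacylase, read 111.8 and 286.4 (2.61-fold), Lig4, a DNA ligase of end joining, 91.8 and 236.7 (2.63-fold), and Txnip, an inhibitor of thioredoxin, 117.4 and 16.2 (7.13-fold lower, -1.2 log2 with normexp). Cellular senescence and p53 genes had a median of -0.04 over 19 measured, and none passed 2-fold with both corrections.

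Genes that were well above background at 1 age only can be given as limits. The limit sets the brighter signal against the dimmest signal that was still well above background on the other array, 6.7 in young and 7.3 in senile, or against the dim probe's own signal where that was higher. In the senile layer, Cyp2ab1, a cytochrome P450, was at least 13.97-fold higher, Col10a1, a collagen chain, at least 13.01-fold, Acsm5, a medium-chain acyl-CoA synthetase, at least 12.45-fold, Rgl3 at least 11.64-fold (0.99 log2 with normexp) and Klrc3 at least 10.89-fold. With normexp the first of these stood at 1.36 log2, Col10a1 and Acsm5 at 1.34 and Klrc3 at 1.32. Lower by at least 30.02-fold was Ifi203, an interferon-induced gene whose relatives are near copies, followed by Clec3a at least 24.83-fold, Il17re at least 21.15-fold, Tnp2 at least 16.22-fold and Nid1, a basement membrane protein, at least 15.55-fold. With normexp these 5 stood between -2.18 (Ifi203) and -1.43 log2 (Nid1). All of these were dim, and in total 735 genes were well above background in young alone and 1331 in senile alone.

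The inner layer gives a second pair of arrays, with no array shared, although its young sample also held striatal marker signal (12 of 19 such genes were at least 2-fold lower in the senile inner sample, 3 of 19 in the outer). Of the 1292 genes higher in the senile outer layer and measured in the inner, 17.3% were at least 2-fold higher there and 15.1% at least 2-fold lower. Of the 1072 lower genes, 26.0% were lower there too and 10.5% higher. For calls backed by normexp the shares in the same direction were 20.9% of 235 and 30.2% of 258, and in the opposite direction 8.1% and 8.9%. Over all genes tested in the outer layer, 4.7% were higher and 6.2% lower in the inner. The genes with a detected signal in each of the 4 samples that passed 2-fold in the outer layer with both corrections were 213 higher and 238 lower.

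**Figure D5:**
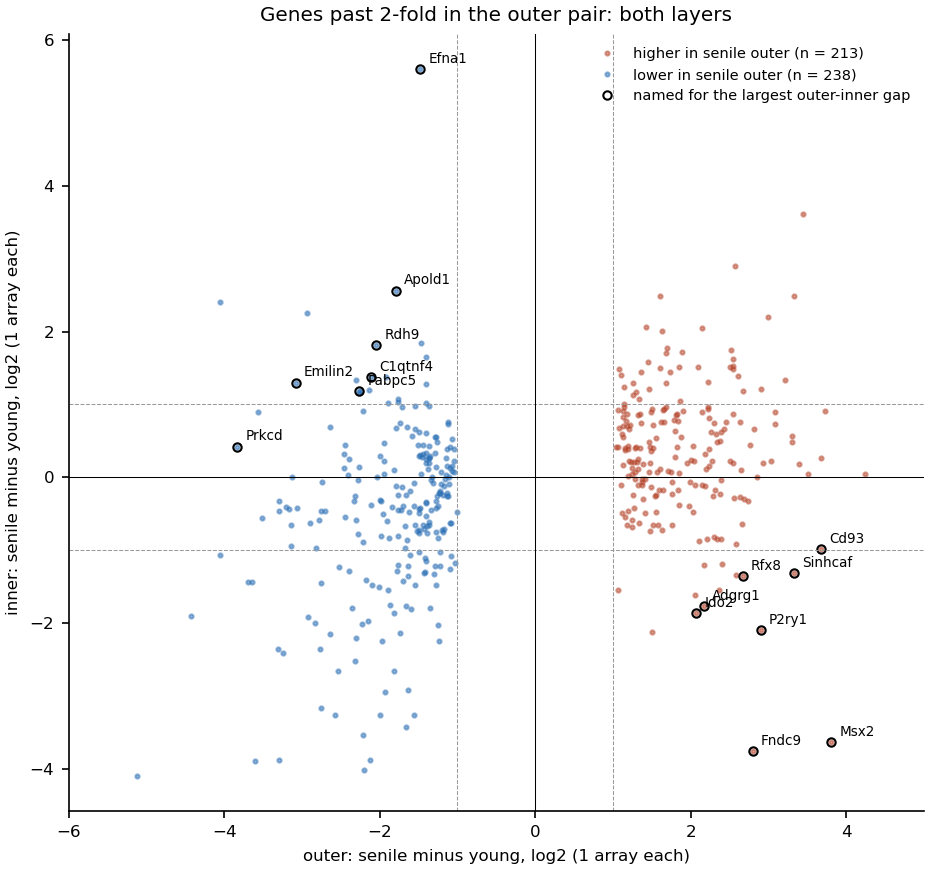
Senile minus young difference in the inner layer (y axis, log2) against that in the outer layer (x axis, log2) for the 213 higher and 238 lower genes, with 1 array per sample. Circles mark the genes with the largest gap between the layers, such as Msx2, Fndc9 and Efna1, and dashed lines mark 2-fold. No point lies between the dashed vertical lines because the genes were chosen for their outer difference.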

How the data were processed

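RNA levels were measured on 1-colour Agilent arrays. Per the file headers, signals were extracted with Agilent Feature Extraction 10.7.3.1 (the submitters' processing notes give 9.5.3), and the deposited values are processed, background-subtracted signal intensity on a linear scale. The well-above-background, saturation and outlier flags used are other values that the deposited files carry. Log2 values were computed here: non-control spots without outlier flags were scaled to each array's 75th percentile, spots of a probe averaged, and the brightest probe over the 4 arrays kept per gene, with values under the dimmest detected signal raised to it where the flag was absent. The authors' deposited log2 table was not used for results. Each row is centred on its median, its column medians run from -0.0133 to 0.0803, and its scale is otherwise not stated. By probe name it did not follow the scanner files (r = 0.008 across probes for the outer difference), although 99.7% of its 1446 rows that range over 4-fold matched some probe within 0.025 log2, a tolerance set after a constant offset was seen.

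Normexp was run with limma 3.58.1. Probe positions are on mm9 per the file headers, and symbols were updated through RefSeq tables (GRCm38.p6), by accession for 16449 genes, by symbol or synonym for 1601 and 295, and kept as in the files for 5769. Members, lists and rules were chosen with earlier results of these data known. The lists of thalamic and of glucocorticoid-induced genes were added after their values were seen. Named genes are those with official symbols that were, in each direction, the 15 with the largest smaller difference of the main and normexp values, the 8 largest in the brightest of 3 signal classes, the 5 largest limits, the 8 with the largest outer-inner gap, and, per list, those past 2-fold with both corrections or else the 3 largest. Others are named from a fixed list after their values were seen. The computation was tested on simulated data. Values of some of these genes are not reported here.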

Additional observations from a re-analysis of the deposited data

Results flagged for a closer look

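Among the named genes reported here, 14 moved at least 2-fold in opposite directions in the outer and the inner layer. The gap between the layers, outer age difference minus inner age difference in log2, is given for each, and none was tested because each sample is 1 array. Higher in the senile outer and lower in the senile inner layer were Msx2 (gap 7.44), a homeobox factor that read 9.8 and 135.0 in young and senile outer and 219.9 and 15.8 in young and senile inner, Fndc9 (6.57), P2ry1 (4.99), a purinergic receptor, Sinhcaf (4.64), Rfx8 (4.03), Adgrg1 (3.94), an adhesion receptor, Tox3 (3.92) and Ido2 (3.92). Lower in the senile outer and higher in the senile inner layer were Efna1 (-7.07), an ephrin that read 557.4 and 196.5 in the outer layer and differed by 5.6 log2 in the inner, Emilin2 (-4.38), Apold1 (-4.35), a gene of activated endothelium, Rdh9 (-3.86), C1qtnf4 (-3.48) and Pabpc5 (-3.44). With normexp the gaps were smaller, between 0.79 and 3.87 in size, and 9 of the 14 genes still passed 2-fold in opposite directions. The outer and inner differences were then 1.49 and -1.9 for Msx2, 1.14 and -1.93 for Fndc9 and -1.27 and 2.6 for Efna1. The inner difference of Sinhcaf (-0.85), Rfx8 (-0.86), Pabpc5 (0.25), Emilin2 (-0.22) and Rdh9 (-0.02) fell under 2-fold. A second probe gave -0.15 log2 for the outer difference of Apold1 and 0.11 for Pabpc5.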

How the results depend on the processing

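Of 9 alternatives, the normexp background moved the counts most, from 1474 to 250 genes higher and from 1213 to 274 lower. Under the other 8 the counts stayed within 1.5 times, between 1000 and 1874 higher and between 932 and 1449 lower, and the median difference of all genes stayed between 0.04 and 0.15 log2. The 155 named genes past 2-fold kept their direction under all 9 alternatives. For normexp this is partly built into the rule that named them. Alternatives that change only the filter on dim genes leave each gene's difference as it was, so for them this outcome was fixed. They stayed past 2-fold in 101 with normexp, 134 with the mean of a gene's probes, 151 with quantile and 153 with median scaling. No paired analysis was possible because each group is 1 array. No array could be left out for the same reason. Arrays give no counting depth: their number limits the precision, and low signals over background make the dimmest of 3 signal classes the least certain.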

Other observations

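Klf15 and Glcci1, both known to respond to glucocorticoids, were among the largest differences, so 24 glucocorticoid-induced genes were looked up after these values had been seen. All 24 were measured, 3 were at least 2-fold higher, 1 lower, and the median was 0.16 log2, beside 0.12 for all genes. Over all genes 6.11% were higher and 5.03% lower. Klf15 and Glcci1, which led to the list, are among the 3 higher, so that count is not independent of them. Arrdc2 (1.16) was the other higher member. Widely used members were flat, with Fkbp5 at -0.01, Tsc22d3 at 0.07, Sgk1 at 0.18 and Per1 at -0.19, and Klf9 at -0.61.

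Genes of the ventricle lining and choroid plexus were mixed. Foxj1, the factor of ciliated cells, read 213.1 in young and 40.3 in senile outer (5.19-fold lower), Ptgds, a prostaglandin synthase of meninges and oligodendrocytes, 1641.7 and 552.8 (2.91-fold lower), and Slc22a6, an organic anion transporter, 39.5 and 151.4 (1.96 log2 higher). Ttr, the defining choroid plexus gene, was not well above background on either outer array.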
